A study of Homo sapiens with 9 samples.

Results

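This is the comparison of MCF10A cells held in high calcium with ionomycin for 16 h against untreated cells of the same line. MCF10A is an established, non-tumorigenic line of human breast epithelium, grown here in medium with horse serum, epidermal growth factor, hydrocortisone, cholera toxin and insulin. The 3 control samples were untreated, and the 3 high calcium samples received 10 mM calcium together with ionomycin, an ionophore that carries calcium across membranes, at a dose labelled as 1 mM. Ionomycin is usually applied in the micromolar range, and whether the labelled unit is right is not known from the sources used here. No group had calcium or ionomycin alone, so the effects of the 2 agents cannot be told apart. The series also holds 3 samples treated with TGFb3, which enter the fit only to estimate the spread, so 6 of 9 samples are compared. The labels number the replicates without saying whether each was its own culture, and the p-values therefore cover just the variation among these samples, part or all of which could be technical. The members are the 13968 of 56609 gene symbols whose mean over the 9 samples reached 1 TPM. TPM is a length-corrected share of each library, scaled to 1000000 per sample, and it keeps no sequencing depth, so the depth behind each value is unknown.

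Epithelial cells keep calcium low in the cytosol and store it in the endoplasmic reticulum, where calcium-binding chaperones fold secreted and membrane proteins. When folding fails, the sensors ERN1, EIF2AK3 and ATF6 start the unfolded protein response, which raises chaperones, degradation and export and lowers general translation. In the breast, calcium handling belongs to lactation, and the series title ties a raised calcium level to milk stasis and to cell death through lysosomes in early involution.

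The libraries of the 2 groups differed in composition, which bears on every value below. Transcripts of the mitochondrial genome took 23.2, 21.7 and 23.3% of TPM in the controls and 11.4, 11.1 and 11.9% in high calcium (exact permutation p = 0.1, two-sided, the smallest that 3 against 3 samples can give). Because each library sums to the same total, this alone moves all other genes up by log2 0.20. Results are therefore given as deposited and again with the 37 symbols starting MT- left out and the rest rescaled to the same total, called rescaled from here on. A gene was called at a limma adjusted p under 0.05, and a gene said to have risen or fallen passed on both scales unless stated. Log2 differences of single genes given without a scale are as deposited. For genes well above 1 TPM the rescaled value is lower by about 0.20, so their rises are smaller and their falls larger. ATF4, for example, had 0.52 as deposited and 0.33 rescaled, and ALG8 had -0.45 and -0.64. As deposited, 6438 genes (46.1%) were called higher and 2378 (17%) lower, and 1465 (10.5%) and 357 (2.56%) passed with a log2 difference of at least 1. Rescaled, 4559 of 13931 genes (32.7%) were called higher and 3761 (27%) lower, and 1131 (8.12%) and 486 (3.49%) passed with a log2 difference of at least 1. All 4559 genes called higher after rescaling were also called higher as deposited, 2344 were called lower on both scales, and 6 changed direction. The median log2 difference over all tested genes was 0.22 as deposited and 0.05 rescaled, and these shares and medians are the background for every list. In 69% of all tested genes the deposited values of the 2 groups did not overlap. A lack of overlap in a gene named below is therefore common in this comparison. MALAT1 and NEAT1, nuclear noncoding RNAs that are used as a check on RNA quality, rose from 158 ± 44.7 to 424 ± 32.2 TPM and from 33.1 ± 6.32 to 82 ± 7.29 TPM. They separated the same samples as the treatment did, and their part in the results below was not tested.

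The label of the cells was checked against markers. All 10 markers of basal mammary epithelium passed the filter, among them KRT5, KRT14, TP63 and EGFR. Of 8 markers of luminal epithelium, which mix hormone receptors, general luminal keratins and a gene of secretory cells, ESR1, PGR, KRT19 and ELF5 were below the filter. The other 4, GATA3, FOXA1, KRT8 and KRT18, passed it, so the luminal markers were not absent. Of these, 3 were called higher and 0 lower as deposited, and 2 and 0 after rescaling. KRT8 and KRT18 rose by 1.37 and 0.46. The fibroblast markers COL1A1 and DCN, 2 of 7 above the filter, were at 0.836, 0.731 and 0.834 TPM in control samples against 2.24, 1.72 and 3.93 TPM after high calcium and at 1.77, 2.71 and 2.49 TPM in control samples against 7.52, 7.98 and 8.16 TPM after high calcium. Of 7 leukocyte markers only CD14 and CSF1R passed, at 20.4, 18.1 and 21.4 TPM in control samples against 36.5, 39.1 and 32.3 TPM after high calcium and at 0.688, 0.894 and 0.525 TPM in control samples against 4.39, 4.01 and 3.82 TPM after high calcium, and PTPRC, CD3E and LYZ did not. Summed, the fibroblast list took at most 0.00126% and the leukocyte list at most 0.00438% of TPM in any sample. In bulk samples, more RNA per cell and more cells of a type cannot be told apart.

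**Figure D1:**
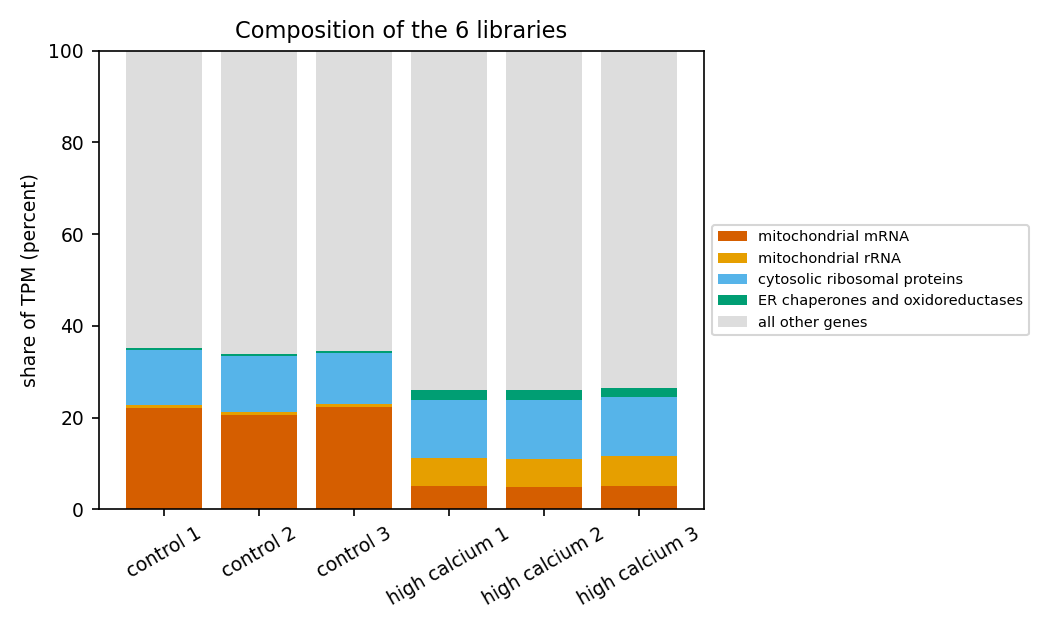
Share of TPM (percent, stacked bars from 0) taken by mitochondrial messenger RNA, mitochondrial ribosomal RNA, cytosolic ribosomal protein genes, ER chaperones and all other genes in each of the 6 samples. Mitochondrial messenger RNA fills 20.6 to 22.3% of each control bar and 4.80 to 5.05% of each high calcium bar, and ER chaperones grow from 0.513 to 0.532% to 2.10 to 2.12%.

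The chaperones and oxidoreductases of the endoplasmic reticulum rose almost without exception. Their summed level was 0.526, 0.532 and 0.513% of TPM in the controls and 2.12, 2.10 and 2.10% in high calcium, with no overlap between the groups. Of 31 tested members 30 were called higher and 0 lower as deposited, and 28 and 0 after rescaling, with a median log2 difference of 1.33 as deposited and 1.14 after rescaling. HSPA5 (BiP, chromosome 9, 125234853 to 125241330), the Hsp70 of the compartment and the brake on the stress sensors, was at 294, 307 and 294 TPM in control samples against 2971, 2949 and 2966 TPM after high calcium (log2 3.31 ± 0.0377, adjusted p = 1.5e-11). HSP90B1 (GRP94, chromosome 12, 103930107 to 103953645), the resident Hsp90, was at 1052, 1056 and 995 TPM in control samples against 6383, 6280.0 and 6372 TPM after high calcium (log2 2.62 ± 0.0393, adjusted p = 6.7e-11). Calreticulin (CALR, chromosome 19, 12938578 to 12944489), which both buffers calcium and folds glycoproteins, was at 491, 517 and 499 TPM in control samples against 2656, 2593 and 2561 TPM after high calcium (log2 2.37 ± 0.0443, adjusted p = 3.4e-10). In all 3 genes every high calcium sample lay several times above every control, and the high calcium samples differed little among themselves. All 3 were among the 5 nuclear genes with the largest gain of TPM.

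The smaller partners of these chaperones moved further on the log2 scale than many of the abundant ones. CRELD2 and MANF, secreted stress factors of the compartment, rose by 2.93 and 2.82, and DNAJB9, a cochaperone that recruits HSPA5 to the sensor ERN1, by 2.82. HYOU1, the nucleotide exchange factor of HSPA5, rose by 2.70 and the disulfide isomerase PDIA4 by 2.42. SDF2L1, which keeps misfolded proteins in solution with HSPA5, was at 9.16, 10.6 and 9.49 TPM in control samples against 46.8, 40.97 and 40.3 TPM after high calcium. The oxidase ERO1B rose from 8.39 ± 0.846 to 37.2 ± 1.63 TPM and its paralog ERO1A from 84.97 ± 3.35 to 120.0 ± 1.68 TPM. The members that moved least were TXNDC12, TXNDC5 and FKBP7. TXNDC12 and TXNDC5 were called higher as deposited only, with rescaled log2 differences of 0.00 and 0.06. FKBP7 was called on neither scale (log2 0.28 as deposited and 0.11 rescaled, adjusted p = 0.089 and 0.52).

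Promoters of these genes are shown because some of them, 6 of 29 chaperones, hold the ER stress element, the sequence bound by ATF6 and XBP1 together with NF-Y. The element was searched as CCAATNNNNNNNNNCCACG on both strands in the 250 bases before the RefSeq start of 9510 tested genes whose symbol matched the RefSeq promoter table (GRCh38.p14). Its first 5 letters are the CCAAT box, so every match is also a CCAAT match. Only 13 of these promoters (0.137%) held it, against 6 of 29 (20.7%) among ER chaperones. Genes called higher by a rescaled log2 difference of at least 1 held it in 9 of 699 cases (1.29%), and those called lower by as much in 0 of 322. Of the 13 genes with the element, 12 were called higher on both scales (CALR, CRELD2, ERO1B, HSP90B1, HSPA5, PDIA6, ALG12, EIF2A, FICD, SERP1, TMEM120A and TRIM5), with log2 differences as deposited from 0.45 for EIF2A to 3.31 for HSPA5. ZNF17 was the exception (log2 0.08 as deposited and -0.10 rescaled, adjusted p = 0.49 and 0.43). FICD, an enzyme that inactivates HSPA5 by AMPylation, was at 1.25, 1.05 and 1.11 TPM in control samples against 9.24, 12.3 and 10.2 TPM after high calcium. A match describes the letters in the window and does not show binding. In each line below, bases in capitals are the element, read 5′ to 3′ on the strand of the gene.
HSPA5, chr9:125241366-125241434, minus strand: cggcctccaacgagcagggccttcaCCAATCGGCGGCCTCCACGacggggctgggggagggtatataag
HSP90B1, chr12:103930201-103930354, plus strand: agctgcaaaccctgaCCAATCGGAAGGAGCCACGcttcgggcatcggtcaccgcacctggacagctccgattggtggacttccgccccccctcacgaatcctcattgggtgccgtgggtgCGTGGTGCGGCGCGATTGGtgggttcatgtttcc
CALR, chr19:12938359-12938427, plus strand: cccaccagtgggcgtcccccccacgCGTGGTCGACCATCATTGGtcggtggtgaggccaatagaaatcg
PDIA6, chr2:10812828-10812896, minus strand: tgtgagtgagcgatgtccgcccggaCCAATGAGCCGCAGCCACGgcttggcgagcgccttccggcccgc
CRELD2, chr22:49918529-49918597, plus strand: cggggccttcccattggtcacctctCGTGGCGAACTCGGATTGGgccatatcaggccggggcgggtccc

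HSP90B1 held 2 matches in this window, 1 in each orientation, and the other 4 genes shown held 1. HSPA5 and PDIA6 carry the element as CCAAT followed by CCACG, while CALR and CRELD2 carry it in the reverse orientation. A shorter variant, ER stress element II, was searched as ATTGGNCCACG. It stood in 12 of 9510 promoters (0.126%), in 2 of 29 ER chaperones and in 1 of 16 tested promoters of the degradation list. Those 3 genes were among the larger rises: HERPUD1, a scaffold of the degradation complex, was at 31.9, 37.6 and 31.6 TPM in control samples against 237, 279 and 266 TPM after high calcium, and HYOU1 was at 59.8, 63.5 and 64.3 TPM in control samples against 425, 411 and 404 TPM after high calcium, beside the values of SDF2L1 above. Over all 12 genes with this variant, 7 were called higher and 3 lower as deposited, and 6 and 3 rescaled. Capitals again mark the matches.
HERPUD1, chr16:56932000-56932060, plus strand: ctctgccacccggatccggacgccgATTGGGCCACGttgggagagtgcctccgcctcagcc
HYOU1, chr11:119057259-119057405, minus strand: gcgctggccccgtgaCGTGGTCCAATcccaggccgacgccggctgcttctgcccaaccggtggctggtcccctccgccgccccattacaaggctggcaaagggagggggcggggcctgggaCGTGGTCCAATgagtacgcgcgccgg
SDF2L1, chr22:21642089-21642149, plus strand: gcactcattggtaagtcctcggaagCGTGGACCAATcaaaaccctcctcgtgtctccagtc

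Most sensors and transcription factors of the unfolded protein response rose. Of 16 tested, 15 were called higher and 0 lower as deposited, and 14 and 1 after rescaling. The kinase and nuclease ERN1 was at 4.28, 4.90 and 4.95 TPM in control samples against 12.04, 11.3 and 12.2 TPM after high calcium (log2 1.17 ± 0.0894, adjusted p = 1.9e-06). The kinase EIF2AK3 (PERK) rose by log2 1.27 and ATF6 by 0.89, and XBP1, whose messenger RNA ERN1 splices, from 119 ± 4.10 to 351 ± 3.35 TPM. ATF4, the main effector of the PERK arm, rose by 0.52 on the log2 scale, and DDIT3 (CHOP), a factor tied to cell death under stress, was at 19.95, 20.8 and 16.7 TPM in control samples against 190.0, 175 and 186 TPM after high calcium. DDIT3 overlaps MBD6, MARS and MIR616, and MIR616 was listed under 1 TPM in every control and between 5.62 and 6.43 TPM in high calcium, so these entries could share reads. Among the membrane-bound relatives of ATF6, CREB3L2 rose by 1.56, CREB3 by 0.97 and ATF6B by 0.81. NFE2L1, a membrane-bound factor that controls proteasome genes, rose from 124 ± 2.90 to 347 ± 8.39 TPM. ATF5 had log2 -0.02 as deposited and -0.21 rescaled, adjusted p = 0.81 and 0.017.

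Most genes of protein entry into the ER and of glycosylation were higher. Among 23 genes of the translocon and of signal peptide handling 20 were called higher and 1 lower as deposited, and 16 and 2 after rescaling, led by the signal peptidase subunit SEC11C at log2 1.77 and the channel SEC61A1 at 1.00. The cytosolic particle that targets ribosomes to the channel was mixed, with SRP54 higher by 0.61 and SRP9 lower (log2 -0.16 as deposited and -0.36 rescaled, adjusted p = 0.0062 and 2.6e-05). SRPRA, a subunit of the receptor of that particle at the ER membrane, rose by 0.76. In the N-glycosylation list, of 31, 23 were called higher and 4 lower as deposited, and 21 and 6 after rescaling. GFPT1, the first enzyme of the hexosamine pathway that feeds glycosylation, was at 23.4, 24.7 and 26.2 TPM in control samples against 118, 118 and 121 TPM after high calcium (log2 2.22 ± 0.0509, adjusted p = 5.6e-10), and PGM3 of the same pathway rose by 1.21. The oligosaccharyltransferase subunits OSTC and MAGT1 rose by 1.34 and 1.55, and the alternative subunit TUSC3 fell by 0.30. ALG8 and ALG6, glucosyltransferases that finish the lipid-linked sugar, fell by 0.45 and 0.26, although most of the list was higher.

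Genes of the coats that carry cargo out of the ER and back rose almost completely. All 18 COPII genes were called higher as deposited and 15 after rescaling, with 0 lower. SEC24D, 1 of 4 cargo adaptors of that coat, was at 12, 11.9 and 12.3 TPM in control samples against 92.5, 93.8 and 95.8 TPM after high calcium (log2 2.86 ± 0.0561, adjusted p = 3.9e-10). Its paralogs SEC24A and SEC24C rose by 0.95 and 0.56, and SEC24B was called higher as deposited only (log2 0.31 as deposited and 0.12 rescaled, adjusted p = 0.0017 and 0.13). Of 17 tested genes of the COPI coat and the KDEL receptors, which return chaperones to the ER, 17 were called higher and 0 lower as deposited, and 16 and 0 after rescaling. KDELR3 was at 6.75, 8.03 and 5.99 TPM in control samples against 50.05, 53.7 and 59.6 TPM after high calcium, while KDELR2 and KDELR1, which start at higher levels, rose by 1.12 and 1.00. Genes for the degradation of misfolded proteins rose in part: of 19 tested, 15 were called higher and 1 lower as deposited, and 13 and 4 after rescaling. HERPUD1 (log2 2.92 ± 0.0769, adjusted p = 1.4e-09), the ubiquitin ligase SYVN1 (log2 1.63) and its adaptor SEL1L (log2 1.97) rose, while UFD1, a cofactor of the extracting ATPase, fell by 0.32. VCP, that ATPase, was at 408 ± 25.4 TPM in control samples against 405 ± 24.5 TPM after high calcium and was called lower only after rescaling (log2 -0.01 as deposited and -0.21 rescaled, adjusted p = 0.88 and 0.0094).

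**Figure D2:**
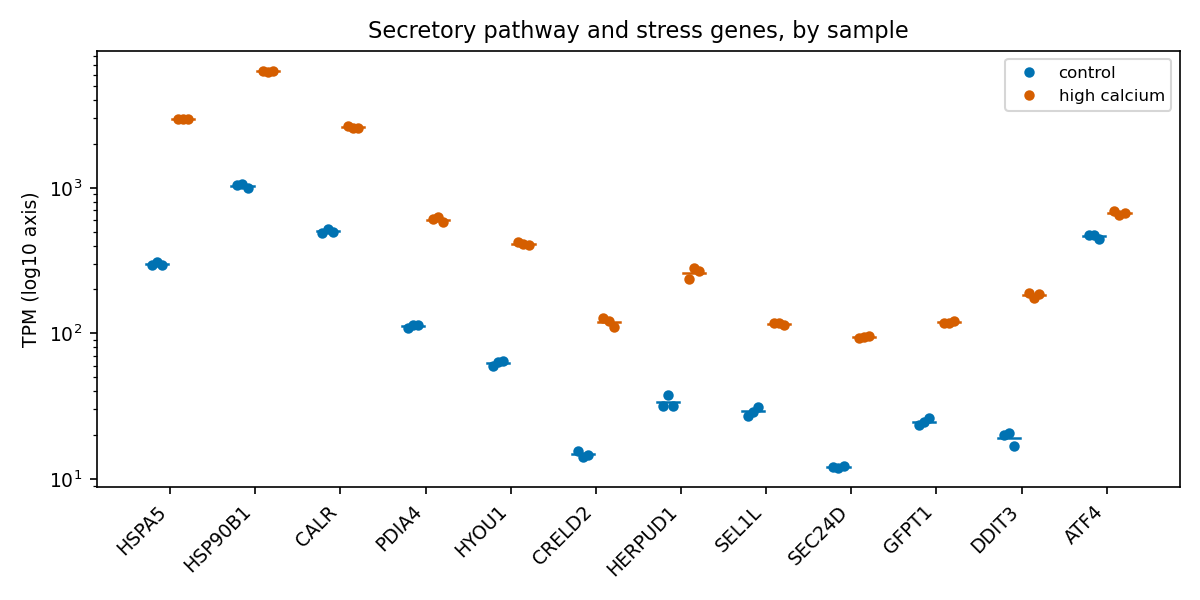
TPM of 12 genes of the secretory pathway in each sample (log10 axis; points, 3 controls and 3 high calcium samples; short lines, group means). In every gene shown the 3 high calcium points lie above the 3 controls, by the widest margin in HSPA5 and by the narrowest in ATF4.

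Outputs of the integrated stress response, which follow phosphorylation of the initiation factor eIF2, were higher with 1 exception. Of 13, 12 were called higher and 0 lower as deposited, and 12 and 0 after rescaling. GDF15, a secreted stress hormone, was at 9.94, 9.63 and 8.35 TPM in control samples against 119.7, 119 and 114 TPM after high calcium (log2 3.53 ± 0.0730, adjusted p = 4e-10), and the transcription factor ATF3 rose from 6.43 ± 1.46 to 50.9 ± 3.42 TPM. PPP1R15A (GADD34), the phosphatase subunit that ends the response, rose by log2 2.63, the pseudokinase TRIB3 by 1.78 and the glutathione-degrading enzyme CHAC1 by 1.56. JDP2 was called on neither scale. The amino acid response core TGATGNAA stood in the promoters of ATF3 and CHAC1, 2 of 11 in this list against 133 of 9510 (1.4%) over all genes searched. Rescaled, genes higher by at least 1 held it in 18 of 699 cases (2.58%) and genes lower by at least 1 in 7 of 322 (2.17%).

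Most genes of amino acid supply were higher as well. Of 19 genes, 18 were called higher and 1 lower as deposited, and 14 and 1 after rescaling. The neutral amino acid transporter SLC1A4 rose from 4.28 ± 0.235 to 28.9 ± 1.14 TPM and PYCR1, the mitochondrial enzyme that completes proline, was at 3.62, 4.97 and 5.72 TPM in control samples against 30.4, 29.97 and 31.2 TPM after high calcium. These had the largest log2 differences of the list, 2.50 and 2.47. Asparagine synthetase (ASNS) rose from 160.1 ± 13.5 to 446 ± 17.8 TPM, and the serine enzymes PHGDH and PSAT1 by 1.00 and 0.90. ALDH18A1, which makes the precursor that PYCR1 uses, fell by 0.16. Cytosolic tRNA synthetases were split: of 20, 13 were called higher and 0 lower as deposited, and 10 and 5 after rescaling. WARS, for tryptophan, rose from 91.6 ± 1.01 to 296 ± 11.6 TPM and AARS, for alanine, from 82.2 ± 3.11 to 226 ± 3.15 TPM, and SARS, CARS, EPRS and GARS rose by 0.83, 0.76, 0.75 and 0.73. The 5 called lower after rescaling (DARS, KARS, FARSA, FARSB and NARS) had rescaled log2 differences from -0.28 to -0.16 and were not called as deposited.

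Genes that move and bind calcium changed unevenly. Of 25 tested pumps and channels, 17 were called higher and 1 lower as deposited, and 13 and 5 after rescaling. STIM1, the sensor of ER calcium, rose from 16.05 ± 0.784 to 40.7 ± 1.17 TPM, whereas its paralog STIM2 had log2 -0.28 as deposited and -0.47 rescaled, adjusted p = 0.07 and 0.0078. Among the channels it opens, ORAI3 was at 0.833, 2.17 and 3.64 TPM in control samples against 17.9, 18.7 and 16.4 TPM after high calcium, ORAI2 rose by 1.07 from about 1 TPM, and ORAI1 was called on neither scale (log2 -0.11 as deposited and -0.28 rescaled, adjusted p = 0.52 and 0.12). The ER pump ATP2A2 rose by 0.83 and the plasma membrane pump ATP2B1 by 0.97. MCU, the pore of the mitochondrial uniporter, fell by 0.30. TRPM4, a cation channel opened by calcium, rose from 7.22 ± 1.86 to 22.8 ± 1.18 TPM.

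Of 16 tested buffers and sensors, 9 were called higher and 3 lower as deposited, and 7 and 3 after rescaling. NUCB2 and NUCB1, calcium-binding proteins of the Golgi, rose by 2.71 and 1.55 and the ER lumen protein CALU by 1.53. CALM3, a gene for the calcium sensor calmodulin, was at 337, 325 and 320.3 TPM in control samples against 559.8, 582 and 566 TPM after high calcium, and it rose without overlap of its samples. CAMK2D, a calmodulin-dependent kinase, rose by 1.04, and its paralog CAMK2B fell from 4.73 ± 1.05 to 0.517 ± 0.104 TPM. RCAN1, an inhibitor of calcineurin, was at 15.2, 16.6 and 16.1 TPM in control samples against 170.3, 169 and 171 TPM after high calcium (log2 3.33 ± 0.0490, adjusted p = 6.6e-11). The calcineurin subunits themselves were close to their control levels: PPP3CB had log2 0.06 as deposited and -0.13 rescaled, adjusted p = 0.45 and 0.12, and PPP3CA was called higher as deposited only (log2 0.21 as deposited and 0.02 rescaled, adjusted p = 0.012 and 0.82). In that list of 10 tested genes 6 were called higher and 0 lower as deposited, and 3 and 1 after rescaling, and after median ratio rescaling the split was 3 and 3.

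Annexins, which bind membranes in the presence of calcium, were higher in 10 tested genes as follows: 9 higher and 0 lower as deposited, 8 and 0 after rescaling. ANXA6 was at 1.07, 0.959 and 1.10 TPM in control samples against 8.80, 8.32 and 6.59 TPM after high calcium and ANXA3 rose from 366 ± 24.04 to 1064 ± 21.9 TPM, and the abundant ANXA2 and ANXA1 rose by 0.43 and 0.63. Among 8 tested genes for calpains, which are calcium-activated proteases, and their inhibitor CAST, 6 were called higher and 0 lower as deposited. After rescaling these counts were 3 and 0. CAPN5 was at 0.427, 0.539 and 0.739 TPM in control samples against 7.20, 6.09 and 5.57 TPM after high calcium, and CAPN1 and CAPN2 rose by 0.49 and 0.51, while the inhibitor CAST had log2 0.07 as deposited and -0.13 rescaled, adjusted p = 0.53 and 0.23. The ESCRT machinery, which reseals membranes, had 19 higher and 2 lower as deposited, 12 and 2 after rescaling of 26 members, led by VPS28 at 1.34. S100 proteins, small calcium-binding proteins, were split, with 6 higher and 7 lower as deposited, 5 and 7 after rescaling. S100A6 and S100A4 rose by 0.73 and 1.53, and S100A14 and S100A2 fell by 0.82 and 0.46.

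Chaperone genes outside the ER mostly went the opposite way from those of the ER. The list covers chaperonin and chaperone genes of the cytosol and mitochondria. Of 29 tested, 2 were called higher and 24 lower as deposited, and 1 and 26 after rescaling. The median log2 difference was -0.45 as deposited and -0.64 after rescaling. HSP90AA1 (chromosome 14, 102080738 to 102139699), the inducible cytosolic Hsp90, was at 2192, 2259 and 2058 TPM in control samples against 742, 766 and 794 TPM after high calcium (log2 -1.50 ± 0.0442, adjusted p = 3.3e-09), against the rise of its ER paralog HSP90B1. HSPA8, the constitutive cytosolic Hsp70, fell from 2268 ± 66.4 to 1224 ± 69.8 TPM, against the rise of HSPA5. Inside mitochondria, HSPE1 and HSPD1, which form the matrix chaperonin, fell by 1.14 and 0.42, and HSPA9 had log2 0.05 as deposited and -0.14 rescaled, adjusted p = 0.21 and 0.0067. All 8 subunits of the cytosolic chaperonin fell, by 0.18 for CCT4 to 0.68 for CCT5. CRYAB, a small heat shock protein, was the exception that rose on both scales, at 1.13, 0.812 and 1.52 TPM in control samples against 15.7, 17.7 and 16.4 TPM after high calcium.

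Ribosome production genes fell as a group. Of 37 tested genes, 1 was called higher and 30 lower as deposited, and 1 and 36 after rescaling. NOP56 and NOP58, core proteins of the particles that methylate ribosomal RNA, fell from 406 ± 17.5 to 188 ± 14.8 TPM and from 232 ± 9.40 to 152 ± 6.47 TPM, and FBL, the methyltransferase of those particles, by 0.50. NCL and NPM1, abundant nucleolar proteins, fell by 0.88 and 0.39. RRP12, which acts in subunit export, rose (log2 0.45 ± 0.0964, adjusted p = 0.0024). The ribosomal protein genes gave no direction that held on every scale: of 77, 32 were called higher and 2 lower as deposited, and 12 and 21 after rescaling, and quantile normalisation gave 21 and 11. Their summed share of TPM was 11.8, 12.1 and 11.1% in the controls and 12.8, 13.03 and 12.8% in high calcium (exact permutation p = 0.1, two-sided). Rescaled, the shares were 15.4, 15.4 and 14.5% against 14.5, 14.7 and 14.5% (exact permutation p = 0.2, two-sided), so the direction turned with the scale and the rescaled groups overlapped.

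Translation factors were mostly called lower after rescaling, but not as deposited. Of 40, 11 were called higher and 12 lower as deposited, and 4 and 24 after rescaling. EIF4A1, the helicase of the cap-binding complex, was at 1217, 1259.8 and 1224 TPM in control samples against 974, 931 and 950.5 TPM after high calcium, and its paralog EIF4A2 was at 299.6, 304 and 292 TPM in control samples against 678, 686 and 692 TPM after high calcium. EIF4A1 fell and EIF4A2 rose on both scales without overlap of their samples. EIF4E, the cap-binding protein, fell by 0.60 while its inhibitor EIF4EBP1 rose by 0.60. The elongation factor EEF2 rose by 0.39 and the start-codon factor EIF1 by 0.92. EEF1A1, among the largest gains of TPM, was called higher as deposited only (log2 0.46 as deposited and 0.27 rescaled, adjusted p = 0.011 and 0.096), and it has many near-identical copies, so its value is uncertain.

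Genes of other housekeeping machines mostly moved down. Among 41 proteasome genes 7 were called higher and 19 lower as deposited, and 0 and 29 after rescaling, with PSMA4 lower by 0.92 and PSMD1 by 0.58. PSMD8 was the 1 member called in opposite directions on the 2 scales (log2 0.10 as deposited and -0.10 rescaled, adjusted p = 0.045 and 0.033). Of 17 splicing regulators, mainly SR proteins and their kinases, 1 was called higher and 12 lower as deposited, and 1 and 13 after rescaling. SRSF2 was at 279.7, 226 and 252 TPM in control samples against 96.1, 117 and 105 TPM after high calcium and SRSF3 fell by 0.79, while the kinase CLK1 rose by 0.53. HNRNPA2B1, another abundant splicing factor, fell from 1663 ± 99.4 to 653 ± 14.01 TPM and was among the 10 largest losses of TPM.

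**Figure D3:**
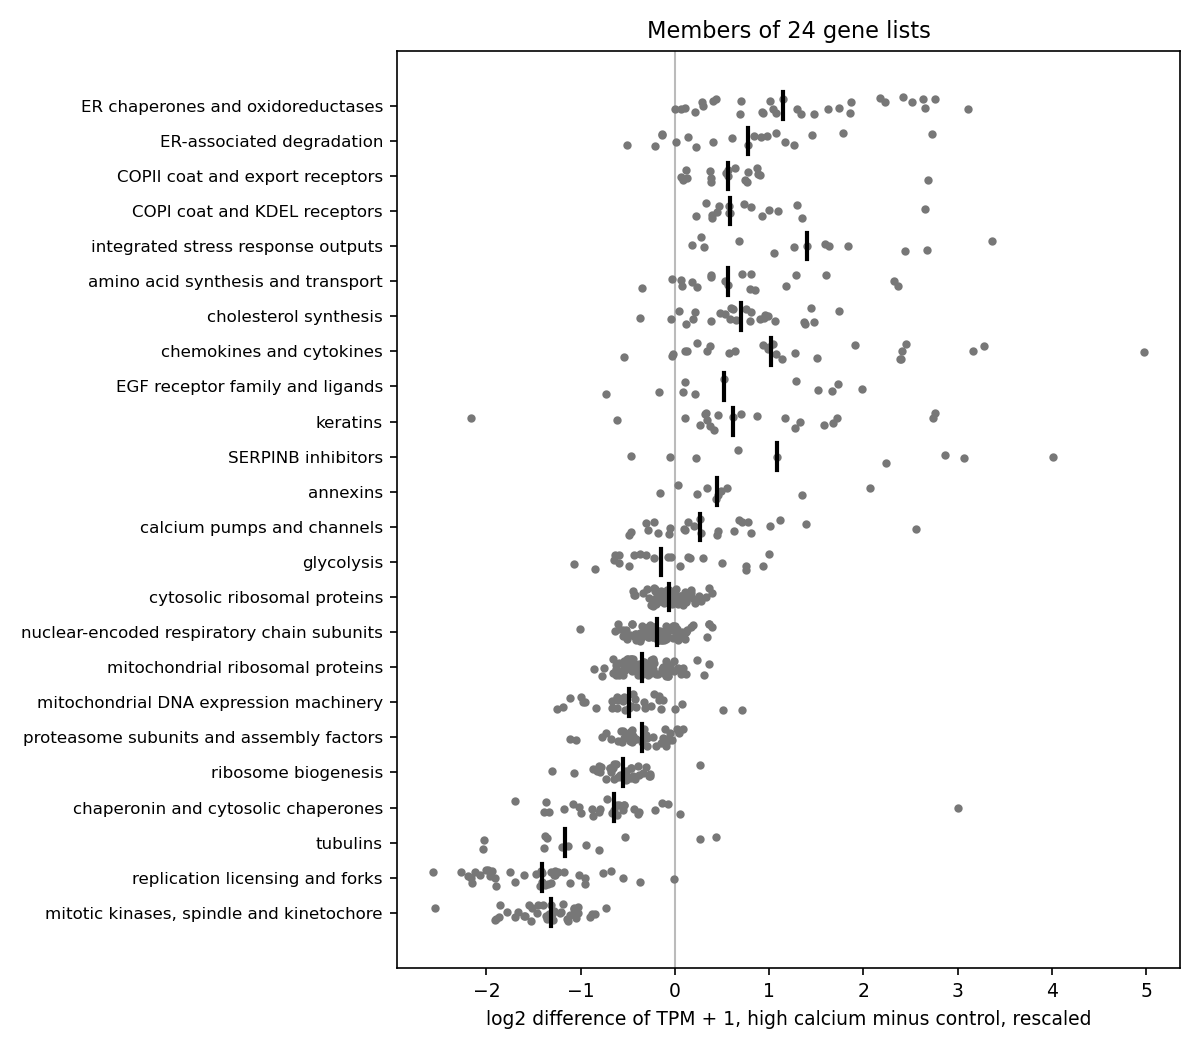
Rescaled log2 difference (high calcium minus control) of every tested member of 24 lists (points; black bars, list medians; vertical line, no difference). The medians of ER chaperone, export and cholesterol synthesis genes lie to the right of the line. Those of replication, mitosis, tubulins, ribosome biogenesis and the chaperones of cytosol and mitochondria lie to the left.

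The mitochondrial genome showed both the largest losses and some of the largest gains of the comparison. Its 13 messenger RNAs together took 22.0, 20.6 and 22.3% of TPM in the controls and 4.98, 4.80 and 5.05% in high calcium (exact permutation p = 0.1, two-sided). Its 2 ribosomal RNAs took 0.757, 0.745 and 0.648% in the controls and 6.14, 6.09 and 6.55% in high calcium (exact permutation p = 0.1, two-sided). The groups did not overlap in either class, and ribosomal RNA went from the minor to the major class of mitochondrial transcript. MT-RNR2 was at 5851, 5692 and 5059.9 TPM in control samples against 51396, 51116 and 55089.8 TPM after high calcium (log2 3.25 ± 0.0680, adjusted p = 4.1e-10). MT-CO2, a subunit of cytochrome c oxidase, was at 30021, 26172 and 28701 TPM in control samples against 2449, 2222 and 2368 TPM after high calcium (log2 -3.59 ± 0.0656, adjusted p = 3.3e-10). MT-ND1, the messenger RNA encoded next to the ribosomal RNAs, fell by 0.50, the least among the 13, and MT-ND3 fell by 3.66, the most. These genes are left out of the rescaled values, so they have the deposited scale only. Of 37 mitochondrial symbols, 34 were called lower and 3 higher, the third riser being the transfer RNA gene MT-TV, which lies between the ribosomal RNAs.

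Nuclear copies of mitochondrial genes followed their sources and are uncertain as nuclear transcripts, since near-identical copies can share reads. MTATP6P1, a pseudogene on chromosome 1, was at 6837, 6411 and 6921 TPM in control samples against 1677, 1623 and 1734 TPM after high calcium, beside MT-ATP6 at 29678 ± 1077 TPM in control samples against 7499.9 ± 209 TPM after high calcium. MTCO2P12, a copy of MT-CO2, fell by 3.61 on the log2 scale, and MTRNR2L12, a copy of MT-RNR2, rose by 3.16. The 14 tested copies held 0.681 to 0.735% of TPM in the controls and 0.181 to 0.193% in high calcium. They remain in the rescaled values.

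Nuclear genes that transcribe, process and package mitochondrial DNA were mostly lower. Of 33, 4 were called higher and 22 lower as deposited, and 2 and 24 after rescaling, with a median log2 difference of -0.30 as deposited and -0.49 after rescaling. TFAM (chromosome 10, 58385022 to 58399221), which packages mitochondrial DNA and starts its transcription, was at 69.6, 73.6 and 68.6 TPM in control samples against 33.3, 33.2 and 33.7 TPM after high calcium (log2 -1.06 ± 0.0519, adjusted p = 8.9e-08). The helicase TWNK fell by 0.80, the termination factor family member MTERF4 by 0.99, and the transfer RNA processing subunits TRMT10C and KIAA0391 by 0.76 and 0.92. SLIRP, which stabilises mitochondrial messenger RNA with LRPPRC, fell by 0.78, while LRPPRC itself had log2 -0.02 as deposited and -0.22 rescaled, adjusted p = 0.66 and 0.0017. The polymerase POLRMT was called higher as deposited only (log2 0.26 as deposited and 0.08 rescaled, adjusted p = 0.014 and 0.4). Mitochondrial ribosomal proteins gave 8 higher and 34 lower as deposited, 2 and 53 after rescaling of 78, MRPL35 falling most at 0.66 and MRPS18B rising most at 0.55.

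Nuclear-encoded respiratory chain subunits were called lower more often than higher on both scales. Of 76, 17 were called higher and 21 lower as deposited, and 6 and 41 after rescaling, and the median was 0.00 as deposited and -0.19 after rescaling. Over all genes tested 17% were called lower as deposited and 27% after rescaling. The 3 genes for the same subunit c of the ATP synthase differed: ATP5G3 was at 123.1, 128 and 186 TPM in control samples against 75.4, 81.3 and 87.3 TPM after high calcium, ATP5G1 fell by 0.31, and ATP5G2 was at 99.2, 92.3 and 121 TPM in control samples against 156, 156 and 144 TPM after high calcium. ATP5G3 and ATP5G2 moved in opposite directions on both scales.

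Genes of DNA replication and cell division fell with few exceptions. In the replication list 0 were called higher and 37 lower as deposited, and 0 and 38 after rescaling of 39. GINS2, part of the helicase at replication forks, was at 22.2, 24 and 22.99 TPM in control samples against 3.80, 3.82 and 3.56 TPM after high calcium (log2 -2.35 ± 0.0685, adjusted p = 3e-09), and PCNA, the sliding clamp, was at 533, 559.7 and 509 TPM in control samples against 156, 157 and 162 TPM after high calcium (log2 -1.75 ± 0.0419, adjusted p = 8.4e-10). The helicase subunits MCM2 to MCM7 fell by 1.11 for MCM6 to 1.92 for MCM3, thymidylate synthase (TYMS) by 2.00 and the polymerase subunit POLE2 fell by 2.05. RPA3, the small subunit of the single-strand binding protein, was called on neither scale, although RPA1 and RPA2 fell by 0.36 and 0.48. The E2F site, searched as TTTCCCGC on both strands, stood in 6 of 32 matched promoters of this list (18.8%), those of CDT1, GINS2, LIG1, MCM3, RFC3 and TYMS. Over all 9510 promoters it stood in 219 (2.3%), in 17 of 322 genes lower by at least 1 (5.28%) and in 12 of 699 genes higher by at least 1 (1.72%). CCAAT boxes were also common among lower genes, in 163 of 322 (50.6%) against 3344 of 9510 (35.2%), and in 28 of 35 promoters of the mitosis list. Genes higher by at least 1 held them in 255 of 699 cases (36.5%). Some lists that rose held them often too, with 19 of 29 ER chaperones (65.5%) and 15 of 20 cholesterol genes (75%).

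Homologous recombination and Fanconi anaemia genes gave 2 higher and 22 lower as deposited, 2 and 23 after rescaling of 25. The nuclease EXO1 fell from 45.9 ± 0.924 to 10.4 ± 0.293 TPM and BRCA1 from 29.1 ± 0.811 to 9.96 ± 0.966 TPM. Within the Fanconi core complex FANCA, FANCB, FANCG and FANCL fell by 1.28, 1.19, 0.37 and 0.65, whereas FANCE and FANCF rose by 0.69 and 0.67. All 40 mitosis genes were called lower on both scales. The kinetochore subunit SPC25 was at 59.9, 62.7 and 51.6 TPM in control samples against 10.4, 12.8 and 8.97 TPM after high calcium and its partner SPC24 fell by 1.66, while NDC80 and NUF2 of the same complex fell by 0.91 and 0.85. Tubulins gave 2 higher and 10 lower as deposited, 2 and 10 after rescaling of 12. TUBA1B was at 928, 983 and 964 TPM in control samples against 270.2, 269 and 269 TPM after high calcium and TUBB4B fell by 1.83, and the 2 that rose were TUBB3 by 0.62 and TUBG2 by 0.44. FAM111B, a protease gene tied to replication, fell from 33.6 ± 0.727 to 4.82 ± 0.0755 TPM.

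Regulators of the G1 phase were mostly lower, with 6 higher and 13 lower as deposited, 4 and 17 after rescaling of 26. CDKN1A (p21), an inhibitor of cyclin-dependent kinases, was at 32.6, 31.8 and 35.9 TPM in control samples against 108, 105 and 102 TPM after high calcium (log2 1.63 ± 0.0692, adjusted p = 3.4e-08), and CDKN1C rose by 1.01. The cyclin CCNE2 fell by 1.83, E2F1 and E2F2 by 1.24 and 1.74, and CCND1 by 0.25. MYC had log2 -0.05 as deposited and -0.24 rescaled, adjusted p = 0.28 and 0.00022. CDKN2A and CDKN2B, inhibitors of the same kinases, were below the filter. Of 13 tested histone genes of the replication-dependent clusters 6 were called higher and 2 lower as deposited, and 6 and 2 after rescaling. As deposited these shares, 46.2% and 15.4%, were near the 46.1% and 17% of all tested genes. HIST1H2BD rose from 2.82 ± 0.528 to 10.2 ± 1.68 TPM, and most of the 86 symbols were below the filter.

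BBC3 (PUMA), a killer protein of the BCL2 family, was at 4.55, 5.10 and 5.60 TPM in control samples against 17.1, 18.9 and 18.6 TPM after high calcium, and PMAIP1 (NOXA) rose by 0.52. In the BCL2 family 11 were called higher and 2 lower as deposited, and 9 and 3 after rescaling of 17. The survival protein BCL2L1 rose from 89.2 ± 1.66 to 154 ± 4.97 TPM and MCL1 fell from 632 ± 19.1 to 547 ± 4.92 TPM, while the effector BAX had log2 0.16 as deposited and -0.03 rescaled, adjusted p = 0.16 and 0.79. Among death receptors, caspases and lytic effectors 14 were called higher and 7 lower as deposited, and 11 and 12 after rescaling of 30. CASP9, the initiator downstream of mitochondria, rose by 0.98, the gasdermins DFNA5 and GSDMD by 1.17 and 1.09, and FAS, CASP8 and MLKL fell by 0.43, 0.24 and 0.51. The antagonists of caspase activation CFLAR and XIAP rose by 0.85 and 0.87.

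Lysosomal proteases gave 6 higher and 1 lower as deposited, 5 and 2 after rescaling of 11 tested cathepsins. CTSO was at 3.59, 3.73 and 3.37 TPM in control samples against 14.7, 15.4 and 14.4 TPM after high calcium, and CTSC, which activates leukocyte proteases, fell by 0.58. Of the inhibitors of cysteine cathepsins, CSTB and CST3 rose by 0.62 and 0.82 and CSTA fell by 0.30. Galectins, which gather on damaged lysosomes, were called higher as deposited in 2 of 3 tested genes, LGALS1 and LGALS3, and in 0 after rescaling, with rescaled log2 differences of 0.12 and 0.17.

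Genes of the differentiating squamous surface were among the largest rises. SPRR1A, a crosslinked protein of the cornified envelope, was at 5.59, 5.89 and 7.23 TPM in control samples against 184, 220.1 and 215 TPM after high calcium (log2 4.84 ± 0.196, adjusted p = 2.4e-08), and SPRR2D was at 4.17, 4.88 and 6.15 TPM in control samples against 140.2, 130.1 and 135 TPM after high calcium (log2 4.50 ± 0.121, adjusted p = 1.6e-09). Of 14 tested envelope genes, 10 were called higher and 0 lower as deposited, and 9 and 0 after rescaling. Involucrin (IVL) was called on neither scale, and loricrin (LOR) and filaggrin (FLG) were below the filter. The crosslinking enzyme TGM2 rose from 7.53 ± 0.554 to 96.4 ± 3.60 TPM, and TGM1, the enzyme of the envelope, by 0.41. Of 9 tested clade B serpins, intracellular protease inhibitors that lie mostly in a cluster on chromosome 18, 8 were called higher and 1 lower as deposited, and 7 and 1 after rescaling. SERPINB13 was at 8.44, 5.69 and 8.43 TPM in control samples against 149, 149.6 and 152 TPM after high calcium, SERPINB4 at 6.64, 5.85 and 6.29 TPM in control samples against 65.6, 67.6 and 66.4 TPM after high calcium and SERPINB7 at 4.60, 3.35 and 4.58 TPM in control samples against 41.9, 37.9 and 40.9 TPM after high calcium. SERPINB3 rose by 2.43, and as it is nearly identical to SERPINB4 the split of reads between them is uncertain. SERPINB5 (maspin), in the same cluster, fell by 0.27.

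Keratins rose in most cases, with 18 higher and 2 lower as deposited, 17 and 2 after rescaling of 21. KRT17, of stressed and basal epithelium, was at 1281, 1237 and 1337 TPM in control samples against 3503, 3726 and 3486 TPM after high calcium (log2 1.47 ± 0.0668, adjusted p = 5.1e-08), and the wound keratin KRT16 rose from 17.9 ± 1.45 to 69.3 ± 2.82 TPM. KRT10, of suprabasal skin, rose from 47.2 ± 4.55 to 174 ± 2.65 TPM, and the basal KRT5 and KRT14 by 0.52 and 1.73. KRT80 was at 2.54, 3.03 and 3.43 TPM in control samples against 27.3, 28.1 and 28.02 TPM after high calcium and KRT34 rose by 2.83. KRT13, of the mucosal surface, was at 47.9, 41.2 and 51.6 TPM in control samples against 10.6, 10.1 and 13.3 TPM after high calcium, and with KRT15 (lower by 0.42) it went against the rest of the family.

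Junctions and matrix contacts changed piece by piece. CLDN1, a tight junction protein, was at 40.6, 38.03 and 42.1 TPM in control samples against 206, 198 and 204 TPM after high calcium, and CLDN4 and OCLN rose by 1.48 and 1.01, while the gap junction gene GJB5 fell by 0.66. Over 25 such genes 15 were called higher and 6 lower as deposited, and 13 and 7 after rescaling. Desmosome genes gave 5 higher and 2 lower as deposited, 5 and 2 after rescaling of 9, with the cadherin DSG3 higher by 1.25. LAMA3 and LAMB3, chains of the laminin that anchors basal epithelium, were at 175, 187 and 182 TPM in control samples against 721, 725 and 684 TPM after high calcium and at 52.8, 58.6 and 63.2 TPM in control samples against 259, 266 and 242 TPM after high calcium. Both rose without overlap of the groups, by 1.96 and 2.12. The integrin that binds this laminin split, ITGB4 rising by 0.88 and ITGA6 falling by 0.44. ITGB6 rose from 22.4 ± 0.494 to 65.1 ± 1.12 TPM, and ITGB2, a leukocyte integrin, went from under 0.7 TPM in every control to at least 5.67 TPM in every high calcium sample. Collagens gave 12 higher and 2 lower as deposited, 12 and 2 after rescaling of 14 tested, COL12A1 rising from 39.2 ± 2.05 to 185 ± 6.74 TPM and COL4A1 falling by 0.57, and the matrix protein TNC rose from 0.885 ± 0.200 to 32.1 ± 3.31 TPM. In the actin list 15 were called higher and 5 lower as deposited, and 9 and 11 after rescaling of 28. As shares these were 53.6% and 17.9% as deposited, and 32.1% and 39.3% after rescaling. All tested genes moved the same way with the scale, from 46.1% and 17% to 32.7% and 27%. TMSB4X, which binds actin monomers, rose by 1.06, and TAGLN and TPM2 fell by 1.81 and 0.74.

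Of 17 epithelial regulators, 8 were called higher and 3 lower as deposited, and 5 and 5 after rescaling. These shares, 47.1% and 17.6% as deposited and 29.4% and 29.4% after rescaling, were near those of all tested genes. Those were 46.1% and 17% as deposited, and 32.7% and 27% after rescaling. The splicing factor ESRP1 was at 1.04, 0.532 and 0.425 TPM in control samples against 24.1, 17.1 and 21.9 TPM after high calcium, and its paralog ESRP2 was at 31.7, 33.1 and 40.5 TPM in control samples against 20.3, 21.5 and 20.1 TPM after high calcium. The ETS factors ELF3 and EHF also diverged, ELF3 rising by 1.46 and EHF falling by 1.36. TP63, the basal master factor, was called higher as deposited only (log2 0.27 as deposited and 0.08 rescaled, adjusted p = 0.00054 and 0.17). SNAI2 fell by 0.35 and VIM rose by 0.60, while FN1 and CDH2 were not called as deposited.

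**Figure D4:**
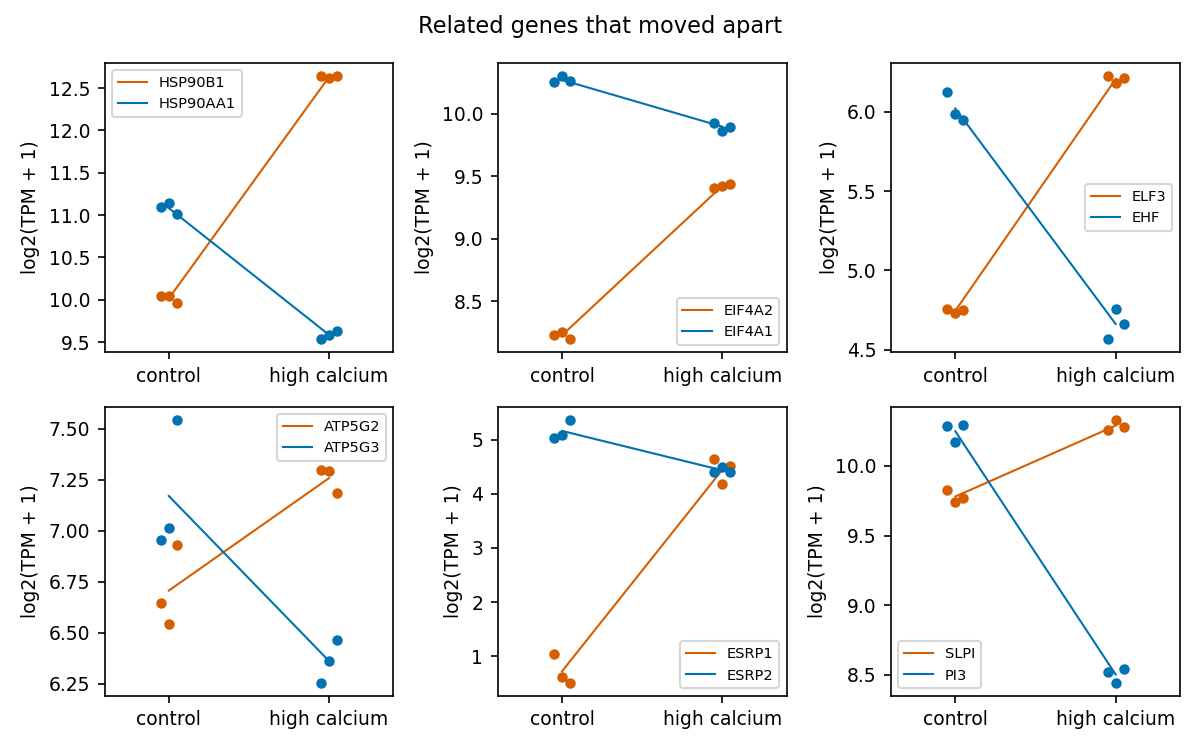
Pairs of related genes that moved in opposite directions, as log2(TPM + 1) in each of the 6 samples (points; lines join the group means of a gene). In each pair one gene has its 3 high calcium points above its 3 controls and the other below.

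Several ligands of the EGF receptor and the receptor itself rose. Of 11 tested family members, 8 were called higher and 0 lower as deposited, and 7 and 1 after rescaling. AREG was at 578, 623 and 491 TPM in control samples against 1522, 1601 and 1579.6 TPM after high calcium, EPGN at 292, 303 and 318 TPM in control samples against 1085, 1122 and 1130.0 TPM after high calcium and BTC at 8.19, 8.65 and 8.68 TPM in control samples against 40.6, 39.7 and 42.9 TPM after high calcium, and HBEGF and EREG rose by 1.92 and 1.71. The receptors EGFR and ERBB2 rose by 0.41 and 0.70. Feedback genes downstream were mixed, DUSP6, a phosphatase specific for ERK, falling from 45.1 ± 2.94 to 20.3 ± 0.189 TPM and DUSP5 rising by 1.18. EGR1, an immediate early factor that follows ERK activity, was at 35.05, 35.8 and 41.3 TPM in control samples against 5.18, 5.74 and 6.19 TPM after high calcium (log2 -2.52 ± 0.0967, adjusted p = 1.7e-08). FOS and FOSL1 fell by 0.65 and 0.54, in contrast to JUN and JUND, which rose by 2.34 and 1.54. AP-1 sites, searched as TGANTCA, stood in 417 of 9510 promoters (4.38%), in 56 of 699 genes higher by at least 1 (8.01%) and in 9 of 322 genes lower by at least 1 (2.8%).

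Chemokines and cytokines rose in most cases, 21 higher and 1 lower as deposited, 20 and 1 after rescaling of 26 tested. CXCL8, which attracts neutrophils, was at 36.03, 41.8 and 37.7 TPM in control samples against 429.9, 429.7 and 448 TPM after high calcium, and CCL20, which attracts dendritic cells and lymphocytes, was at 102, 103 and 96.1 TPM in control samples against 1034, 992 and 1075 TPM after high calcium. IL24, a secreted cytokine, was at 0.330, 0 and 0 TPM in control samples against 31.4, 31.5 and 28.8 TPM after high calcium. Its controls are at or near 0, so its fold is not given. IL32 rose from 10.3 ± 0.776 to 68.4 ± 6.45 TPM, IL1A by 1.46 and CXCL2 by 2.57. Inhibitors and subunits of NF-kappaB gave 15 higher and 0 lower as deposited, 9 and 0 after rescaling of 17, with RELB, the subunit of the noncanonical arm, highest at 1.54 and NFKB1 called on neither scale. Interferon-stimulated genes gave 17 higher and 0 lower as deposited, 14 and 2 after rescaling of 24, IFIT2 rising from 5.09 ± 0.313 to 20.9 ± 0.517 TPM, and OAS1, OAS3, IFI44L and USP18 were called on neither scale.

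Defence proteins of the surface were divided. LCN2, an iron-binding protein of inflamed epithelium, was at 9.46, 8.94 and 8.79 TPM in control samples against 126, 132 and 139.5 TPM after high calcium (log2 3.73 ± 0.0841, adjusted p = 5.4e-10), CFB of the complement system at 22.1, 15.4 and 18.3 TPM in control samples against 173, 161 and 169 TPM after high calcium, and SAA2 rose from 193 ± 6.57 to 788 ± 21.6 TPM. PI3 (elafin), a protease inhibitor, was at 1247, 1151 and 1254 TPM in control samples against 367, 347 and 371 TPM after high calcium (log2 -1.75 ± 0.0757, adjusted p = 3.7e-08), in contrast to its relative SLPI, which rose by 0.51. Complement C3 fell by 0.60 although C1R and C1S rose by 1.32 and 1.26. In total 11 were called higher and 2 lower as deposited, and 11 and 2 after rescaling of 13 tested.

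Genes of cholesterol synthesis rose along most of the pathway, with 23 higher and 1 lower as deposited, 21 and 1 after rescaling of 26. Their median log2 difference was 0.90 as deposited and 0.70 after rescaling. HMGCS1, at the entry to the pathway, was at 252, 265 and 277 TPM in control samples against 1002, 1014 and 1021 TPM after high calcium (log2 1.93 ± 0.0436, adjusted p = 5.4e-10), and MVD and MSMO1 further on rose by 1.66 and 1.58. INSIG1, a sterol-sensing regulator, rose by 0.77. Fatty acid genes gave 14 higher and 0 lower as deposited, 10 and 3 after rescaling of 18, ACSS2 rising from 101 ± 4.07 to 322 ± 11.9 TPM. SREBF2, the regulator of sterol genes, rose by 0.72 and SREBF1 was called lower only after rescaling (log2 -0.08 as deposited and -0.27 rescaled, adjusted p = 0.51 and 0.041).

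Genes of iron storage and several antioxidant genes rose. FTH1 (chromosome 11, 61959718 to 61967660), the ferritin heavy chain, was at 3662, 3859.8 and 3726 TPM in control samples against 10008, 10111 and 10432 TPM after high calcium (log2 1.44 ± 0.0652, adjusted p = 5e-08), the largest gain of TPM of any nuclear gene, and it has processed copies that could share reads. FTL rose from 1542 ± 43.5 to 2422 ± 27.3 TPM and the iron uptake receptor TFRC by 0.80. The list of heme and iron had 16 higher and 2 lower as deposited, 13 and 4 after rescaling of 22. HMOX1, which degrades heme, was at 1.25, 0.201 and 0.315 TPM in control samples against 11.2, 11.4 and 9.70 TPM after high calcium, while its constitutive paralog HMOX2 fell by 0.50. STEAP4, a metal reductase, was at 0.914, 0.698 and 0.811 TPM in control samples against 13.7, 13.97 and 14.8 TPM after high calcium. Targets of NRF2 gave 20 higher and 2 lower as deposited, 17 and 3 after rescaling of 26, with the aldo-keto reductases AKR1C1 and AKR1C2 higher by 3.00 and 1.66 (near-identical paralogs, so their split is uncertain). NQO1, a standard target, was called on neither scale (log2 0.05 as deposited and -0.14 rescaled, adjusted p = 0.58 and 0.13), and GSR and ABCC2 fell by 0.67 and 1.46. SOD2, the mitochondrial superoxide dismutase, was at 155, 231 and 162 TPM in control samples against 1522, 1156 and 1613 TPM after high calcium, and the polyamine enzyme SAT1 at 611, 619 and 594 TPM in control samples against 1977, 1978 and 2035 TPM after high calcium.

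Glycolysis showed no common direction, with 10 higher and 8 lower as deposited, 7 and 11 after rescaling of 22. LDHA was at 2989, 3039 and 2889 TPM in control samples against 1609.8, 1642 and 1616 TPM after high calcium (log2 -0.87 ± 0.0936, adjusted p = 2.2e-05) and PKM fell from 1238 ± 81.9 to 785 ± 20.3 TPM, whereas the glucose transporter SLC2A1 rose from 30.6 ± 2.95 to 67.4 ± 1.82 TPM and the lactate exporter SLC16A3 by 0.69. GAPDH, a common reference gene, was called higher as deposited only (log2 0.16 as deposited and -0.04 rescaled, adjusted p = 0.047 and 0.58). Hypoxia-associated genes gave 9 higher and 1 lower as deposited, 8 and 1 after rescaling of 14, NDRG1 and VEGFA rising by 1.94 and 1.35 and PDK1 and ADM called on neither scale. Zinc transporters gave 13 higher and 0 lower as deposited, 9 and 2 after rescaling of 17, with SLC39A14 higher by 1.11. MT2A, the main metallothionein, fell by 0.19 while MT1F rose from 18.4 ± 3.32 to 56.3 ± 2.21 TPM.

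Beyond these lists, nuclear genes that went up gained 18.8% of all TPM as deposited. Over those that went down the share of all TPM fell by 7.56%, leaving a net gain of 11.3% of all TPM. As every library sums to the same total, this net gain is the share that the mitochondrial genome lost and not a separate result. The 10 largest gains, led by FTH1, HSP90B1 and HSPA5, made up 2.60% of all TPM, so most of the gain was spread over many genes. That spread includes the shift of scale, which moves all nuclear genes up. The share of the 10 most abundant nuclear symbols was 4.80, 4.71 and 4.57% in the controls and 5.69, 5.83 and 5.66% in high calcium (exact permutation p = 0.1, two-sided). Rescaled, the difference was smaller, with 6.25, 6.01 and 5.96% against 6.43, 6.56 and 6.42% (exact permutation p = 0.1, two-sided). Symbols at 1 TPM or more numbered 13316, 13341 and 13525 in the controls and 14485, 14497 and 14426 in high calcium (exact permutation p = 0.1, two-sided). Rescaled, they numbered 13867, 13847 and 14117 against 14791, 14735 and 14721 (exact permutation p = 0.1, two-sided), also a smaller difference. There were 37 symbols under 1 TPM in all controls and at 5 TPM or more in all high calcium samples, and 3 in the opposite direction, all mitochondrial transfer RNA genes. CNTD2, a cyclin-like gene, was the 1 symbol listed at 0 in all controls and at 5 TPM or more in all high calcium samples, with 5.87, 6.84 and 5.45 TPM after treatment. AGR2, a disulfide isomerase of mucus-secreting cells, was at 0, 0 and 0.694 TPM in control samples against 6.77, 8.54 and 8.78 TPM after high calcium. IL2RG, a cytokine receptor chain, was at 0.772, 0.693 and 0.635 TPM in control samples against 11.2, 9.75 and 12.8 TPM after high calcium.

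Several of the largest differences lay outside the lists. SULT1E1, which inactivates oestrogens, was at 92.9, 85.6 and 98.5 TPM in control samples against 17.2, 18.5 and 16.3 TPM after high calcium, and DKK1, a secreted inhibitor of Wnt signalling, was at 65.6, 65.9 and 78.7 TPM in control samples against 14.3, 16.1 and 16.3 TPM after high calcium. SULT1E1 fell by 2.35 and DKK1 fell by 2.10, without overlap of the groups. HYPK fell from 119 ± 6.78 to 27.4 ± 3.66 TPM and overlaps SERF2 and SERINC4, so its reads could be shared. Among rises, HOGA1, a mitochondrial enzyme of hydroxyproline breakdown, was at 3.29, 2.90 and 4.96 TPM in control samples against 55.1, 50.2 and 54.2 TPM after high calcium, and FAM129A, a stress-induced gene, was at 0.504, 0.941 and 0.810 TPM in control samples against 19.2, 17.97 and 17.4 TPM after high calcium.

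Counts of other fixed families follow. Over all tested genes, 46.1% were called higher and 17% lower as deposited, and 32.7% and 27% after rescaling. Immediate early and AP-1 factors gave 13 higher and 4 lower as deposited, 13 and 5 after rescaling of 18. MAP kinase feedback genes gave 7 higher and 2 lower as deposited, 7 and 4 after rescaling of 15. The Notch pathway gave 2 higher and 3 lower as deposited, 0 and 4 after rescaling of 13, and circadian clock genes 6 higher and 2 lower as deposited, 4 and 2 after rescaling of 13. Integrins gave 11 higher and 3 lower as deposited, 8 and 3 after rescaling of 16, and genes that host small nucleolar RNAs 15 higher and 3 lower as deposited, 9 and 5 after rescaling of 26.

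Shares called on the rescaled values are given by type of gene as a description, with no test between types. Of 495 antisense genes 18% and of 435 long intergenic noncoding genes 20% were called higher by at least 1, beside 7.35% of 11630 coding genes. The shares lower by at least 1 were 1.21, 1.84 and 3.51%. Of 68 small nucleolar RNA genes 2.94% were called higher and 17.6% lower at any size. Among genes with a mean of 1 to 2 TPM 13% were higher by at least 1, and among those at 50 to 100 TPM 5.15%. The filter is a mean over the 9 samples, high calcium included, so near the cut a gene can pass through that group alone. How far this set the shares of low genes, and of types with many low genes, was not tested. Without a statement of strandedness, reads of an antisense gene and its partner cannot be told apart.

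**Figure D5:**
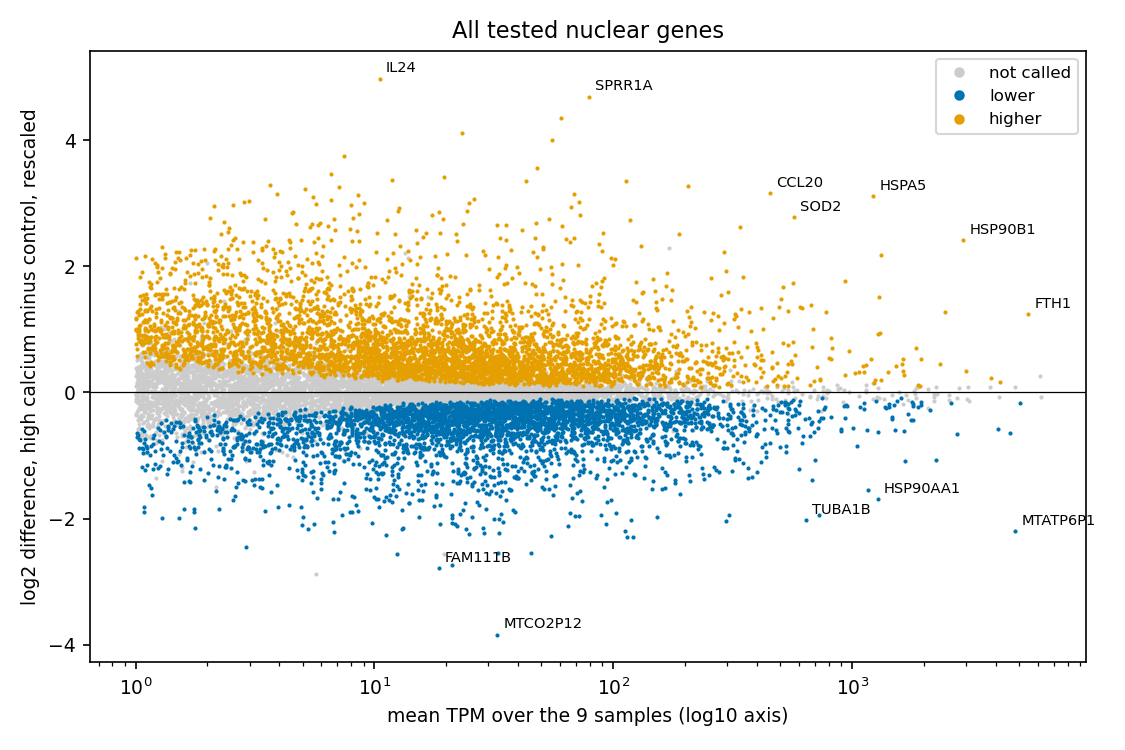
Log2 difference (high calcium minus control, rescaled) against mean TPM over the 9 samples of the series (log10 axis) for 13931 nuclear genes. Grey points were not called, orange points were called higher and blue points lower, and named genes are labelled. Where a gene is near 0 TPM in one group, as IL24 is in the controls, its height is set by the 1 TPM added before the logarithm and is not a fold change.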

How the data were processed

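RNA was sequenced from 9 MCF10A samples in 3 groups of 3. The authors deposited 1 table of TPM values, and HISAT2 and hg38 are named in the submitters' processing notes, while the quantifier, annotation and strandedness were not given in the sources used here. TPM totals 1000000 in every sample and keeps no depth, so no interval from counts can be given. Rows that shared a symbol were summed (253 symbols held 1932 of 58288 entries), and a symbol was tested where its mean reached 1 TPM. Values of log2(TPM + 1), a scale that understates changes of low genes, were fitted over all 9 samples with limma 3.58.1 in R 4.3.3 (moderated test, variance trend, Benjamini-Hochberg adjustment over all genes). All adjusted p-values are from this fit, and values after ± are SD for TPM (n = 3) and SE for log2 differences. Single values used two-sided exact permutation tests. Genomic positions are from GENCODE on hg38, and promoters from RefSeq, matched by symbol. Genes to name were the largest called differences, the largest gains and losses of TPM, leading members of lists and members that went against their list, and further members were named after their values were seen. The members and lists were chosen with earlier results of these data known. Alternatives were other scalings, pseudocounts, filters, variance models, a replicate block and leaving out each sample. Some genes are not reported here.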

Additional observations from a re-analysis of the deposited data

How the results depend on the processing

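Scaling changed the balance of higher and lower calls. As deposited, 73% of calls were higher, against 54.8% with the mitochondrial genes left out, 50.4% after median ratio rescaling and 47.2% after quantile normalisation. Median ratio rescaling gave 4240 genes higher, 4174 lower and 538 lower by at least 1, and quantile normalisation gave 3991 higher, 4464 lower, 845 higher by at least 1 and 649 lower by at least 1. Leaving out the mitochondrial genes gave 3761 genes lower, and leaving out their nuclear copies too, an alternative chosen after seeing the data, gave 3817. A minimum mean of 5 TPM, which tests fewer genes, gave 911 higher by at least 1. A pseudocount of 0.1 gave 1956 higher and 453 lower by at least 1. No filter on low values, which tests 26932 symbols, gave 26.8% of them higher and 8.62% lower, against 46.1% and 17.0%. The ribosomal protein share, higher as deposited, differed by -0.576 percentage points with the mitochondrial genes left out. Leaving out 1 sample at a time gave 5901 to 6430 genes higher, 2125 to 2398 lower, 1428 to 1597 higher by at least 1 and 345 to 374 lower by at least 1.

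Of 351 genes named, 308 kept their side of the threshold under all alternatives with no change of sign in a called value. 29 genes changed sign under an alternative, 17 of them only between values that were not called. Signs turned in a value called as deposited or under the alternative, among the settings in which the mitochondrial genes were left out, those genes and their copies were left out, or values were rescaled by median ratio or quantiles, for CDH2 (-0.296), FARSA (-0.221, -0.178, -0.166 and -0.188), FARSB (-0.203, -0.160, -0.141 and -0.170), FN1 (-0.228, -0.185, -0.170 and -0.195), GAPDH (-0.0839, -0.0393 and -0.0496), HSPA9 (-0.186, -0.141, -0.120 and -0.152), NARS (-0.203, -0.159 and -0.169), POLRMT (-0.0412), PPP3CA (-0.0246), PPP3CB (-0.175), PSMD8 (-0.142, -0.0975, -0.0270 and -0.108) and TXNDC12 (-0.0437 and -0.00974), with the cause of each not tested. The labels do not say whether equal replicate numbers pair the samples. Same-numbered samples had deviations from their group means correlated at -0.075 to -0.004. Deviations from a mean of 3 samples sum to 0 within the group, so these correlations cannot settle whether samples were paired. A fit with the replicate number as a block gave 6258 genes higher, 2299 lower, 1466 higher by at least 1 and 357 lower by at least 1. Unknown depth limits what can be said of genes near 1 TPM.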
